A study of Mus musculus with 16 samples.

Results

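The genes described here are 8 enzymes that make non-essential amino acids other than serine and glycine: Asns, Gpt2, Pycr1, Aldh18a1, Got1, Got2, Glul and Oat. They were chosen by name and found as 8 of the 55416 rows of a table of RNA-seq read counts. The rule that picked the rows used no measured value, but the list was drawn up with earlier results of these data known. The table covers 16 libraries from the livers of 8 mouse embryos, all at stage E13.5 and on a C57BL/6J background. Wild-type (WT) embryos numbered 4 (embryos 0, 1, 5 and 8), heterozygotes (Het, Nprl3+/-) 2 (embryos 3 and 4) and homozygotes (KO, Nprl3-/-) 2 (embryos 2 and 9). The mutant allele is constitutive, lacks the promoter of Nprl3 and keeps the α-globin enhancers that lie within that gene, so every cell of the embryo carries it. Nprl3 is a subunit of GATOR-1, the complex that restrains the nutrient-sensing kinase mTORC1 when amino acids are scarce. From each embryo, S1 cells (early erythroid progenitors) and S3 cells (basophilic erythroblasts, which have begun to fill with haemoglobin) were sorted on the surface markers Ter119 and CD71. Embryos 1, 2 and 5 were labelled female and embryos 0, 3, 4, 8 and 9 male, and the authors had assigned sex from reads on the Y chromosome.

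Mammalian cells can make several amino acids from intermediates of glucose and glutamine metabolism. Transaminases move an amino group between glutamate and a keto acid, Asns and Glul build the amides asparagine and glutamine, and proline is made from glutamate by Aldh18a1 and Pycr1 or reached from ornithine through Oat. Several of these genes are known targets of ATF4, the transcription factor that is translated when amino acids run short, and ATF4 is also raised by mTORC1. ATF4 with a C/EBP partner binds a composite element whose core can be written TGATGNAA.

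Among the enzymes of the proline branch, Pycr1 (pyrroline-5-carboxylate reductase, the last step to proline) is ENSMUSG00000025140.16, at chr11:120526538-120534595 on the minus strand of mm39. Aldh18a1 (pyrroline-5-carboxylate synthase, the first step from glutamate) is ENSMUSG00000025007.14, at chr19:40538701-40576907 on the minus strand. Oat (ornithine aminotransferase, which links ornithine to the same intermediate) is ENSMUSG00000030934.10, at chr7:132159207-132178127 on the minus strand. Of the transaminases, Gpt2 (the mitochondrial alanine aminotransferase) is ENSMUSG00000031700.12, at chr8:86219205-86254189 on the plus strand. Got1 (the cytosolic aspartate aminotransferase) is ENSMUSG00000025190.14, at chr19:43488191-43513044 on the minus strand, and Got2 (its mitochondrial counterpart) is ENSMUSG00000031672.9, at chr8:96590762-96615175 on the minus strand. The amide synthases are Asns (asparagine synthetase), ENSMUSG00000029752.13, at chr6:7675169-7693254 on the minus strand, and Glul (glutamine synthetase), ENSMUSG00000026473.17, at chr1:153775690-153785469 on the plus strand. All these bounds run from the first to the last counted exon.

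The letters TGATGNAA were sought on both strands in the 250 bases before the start of each gene, because ATF4 is known to act on several of these genes. The element, too, was chosen with earlier results of these data known. The windows came from the RefSeq promoter table (build GRCm38.p6), which held all 8 genes, and each was placed by a single exact match in GRCm39, the assembly of mm39. The element was present in 3 of the 8 windows and in 3.45% of the 32851 promoters of the table. The 30 bases around each match are shown 5′ to 3′ in the direction of the gene, with the match in capitals.
Asns: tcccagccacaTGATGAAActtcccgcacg
Pycr1: tgccctgtgtaTGATGCAAtgcacaaggct
Got1: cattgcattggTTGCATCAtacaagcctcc
The Asns match lay 23 to 16 bases before the RefSeq start (the stretch shown is chr6:7693214-7693243, minus strand) and falls inside an exon of Asns in GENCODE release 39. In Pycr1 it lay 103 to 96 bases before the start, in chr11:120534659-120534688 on the minus strand, outside any exon of that strand. Got1 held the match on the opposite strand, 102 to 95 bases before its start, in chr19:43513128-43513157, inside an exon of Got1 that GENCODE release 39 extends beyond the bounds counted here. The first 200 bases of the Pycr1 window (chr11:120534625-120534824, minus strand) are given because this gene had the smallest p-value of the 8 in S3 cells.
Pycr1 promoter: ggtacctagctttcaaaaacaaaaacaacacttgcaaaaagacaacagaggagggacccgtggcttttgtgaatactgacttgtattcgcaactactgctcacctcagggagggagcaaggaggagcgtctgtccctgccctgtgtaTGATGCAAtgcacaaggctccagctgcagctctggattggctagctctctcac
No match was found in the windows of Gpt2, Aldh18a1, Got2, Glul and Oat. A match of letters is a description and not a measured binding site.

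Between 23331156 and 36035368 read pairs were counted in each S1 library, and between 20666044 and 37609502 in each S3 library. Nprl3 itself was counted 13 and 32 times in the KO S1 libraries against 881 to 1588 times in WT S1, and 1730 and 2069 times in KO S3 against 2953 to 3883 in WT S3. The counted exons of the gene reach beyond the deleted promoter. According to the paper, spliced transcripts that start at the α-globin enhancers and code for no protein confound the measurement of Nprl3 mRNA. Its promoter-specific PCR detected no Nprl3 mRNA in KO cells, so these counts do not measure promoter-derived mRNA. The source of the KO reads was not tested. The labels name an embryonic stem cell line as the source, yet 6 matched pluripotency markers summed to at most 0.110 CPM in any library, and the S3 markers (the adult globins, Alas2, Slc4a1, Epb42 and Ermap) summed to 150209 to 202312 CPM at S3. The S1 markers (Kit, Gata2, Myb, Cd34, Cpa3 and Hmga2) summed to 155 to 235 CPM at S1 and 1.80 to 9.09 CPM at S3. Those S3 markers were lower in KO S3 (150209 to 154657 CPM) than in every WT S3 library (166301 to 202312), and all 15 hepatoblast markers had negative KO minus WT differences at S3, with sums of 108 to 276 CPM in KO against 233 to 1018 in WT. In Het S3 all 15 were likewise negative (median -1.32), with sums of 170 to 228 CPM, below every WT library. In Het S1 hepatoblast markers summed to 33.5 to 51.1 CPM against 67.7 to 373 in WT, and megakaryocyte markers to at most 30.4 against 39.6 to 73.9 CPM, also below every WT library. Macrophage markers summed to 22.8 to 37.8 CPM in KO S3 against 44.0 to 93.4 in WT S3 (Cd163 at 0 in both KO libraries), and megakaryocyte markers to 63.9 to 129 against 58.0 to 107 CPM (Gp1bb at 0), while the embryonic globins of primitive erythroid cells summed to 2116 to 2576 CPM in KO S3 and 2185 to 4382 CPM in WT S3. Among these 3 globins, Hbb-bh1 was lower in KO S3 (542 to 829 CPM against 1385 to 2030 in WT S3), and the other 2 had positive differences. At S1, neutrophil markers summed to 1579 to 1658 CPM in KO, 1524 to 1540 in Het and 122 to 1284 CPM in WT, with Ly6g at 0 in all groups, macrophage markers to 69.2 to 69.8 CPM in KO, 36.1 to 52.9 in Het and 31.1 to 53.2 in WT, and S3 markers to 913 to 2488 CPM in KO, 1199 to 1431 in Het and 1750 to 8173 in WT. Of the 13 macrophage markers tested in KO S1, 9 had negative differences to WT and 4 positive ones (median -0.33). Lyz2 alone was at 45.3 to 52.0 CPM in KO S1 and 9.90 to 37.4 CPM in WT S1. At S3, neutrophil markers summed to 1.26 to 5.02 CPM in WT and 1.65 to 13.8 CPM in KO, with the 13.8 in embryo 9. The part of these other cells and of the stage within the gate in the differences between groups was not tested, and in bulk samples fewer cells of a type and less RNA per cell cannot be told apart. Levels are counts per 1000000 counts of a library (CPM), scaled with TMM factors over all 16 libraries, and where the value of each library of a group is listed, the libraries follow the order of the embryo numbers.

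In S3 cells, where the KO and WT libraries were compared for the effect of losing Nprl3, 5 of the 8 enzymes had both KO libraries above all 4 WT libraries, and these were the 3 enzymes of the proline branch, Gpt2 and Asns. None of the 8 passed the test across all 11804 genes in edgeR's quasi-likelihood fit (0 with an adjusted p under 0.05, which defines a call here), although 3 had an unadjusted p under 0.05 and DESeq2 called 1, Pycr1, with 1.22% of all genes called higher by that tool. For comparison, 0.457% of all tested genes were called higher in KO and 0.102% lower, while 9.63% had both KO libraries above every WT library and 8.92% both below, as none of the 8 had. The median log2 difference (KO minus WT) was 0.43 over the 8 enzymes and 0.01 over all tested genes.

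Pycr1 was measured at 24.7, 19.7, 28.1 and 22.5 CPM in the WT S3 libraries and at 45.4 and 42.8 CPM in KO S3. Both KO libraries lay well above the highest WT library, and the fitted difference was 0.90 ± 0.16 (log2, SE; 1.87-fold; adjusted p = 0.0649). Aldh18a1, which supplies its substrate, had 40.1, 45.5, 47.4 and 21.8 CPM in WT and 72.5 and 61.0 CPM in KO. The groups did not overlap, WT embryo 8 was the lowest library, and the difference was 0.80 ± 0.27 (adjusted p = 0.381). For Oat the WT libraries gave 66.9, 86.0, 76.5 and 56.9 CPM and the KO libraries 98.1 and 88.3 CPM. Here the gap between the lowest KO and the highest WT library was small, and the fit gave 0.39 ± 0.18 (adjusted p = 0.602).

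Gpt2 was the least abundant of the enzymes, with 3.43, 1.56, 1.34 and 2.24 CPM in WT S3 and 5.40 and 4.75 CPM in KO S3, from 31 to 80 counts per WT library and 84 to 85 counts in KO. The KO libraries exceeded all WT libraries, and the difference of 1.26 ± 0.38 (2.39-fold; adjusted p = 0.293) was the largest among the 8, with the largest SE. Got1 gave 13.4, 16.7, 14.6 and 14.1 CPM in WT and 18.3 and 15.6 CPM in KO, and the KO library of embryo 9 fell inside the WT range (0.22 ± 0.17, adjusted p = 0.843; 0.086 without KO embryo 2 and 0.34 without KO embryo 9). Got2 stood at 178, 188, 179 and 164 CPM in WT and 177 and 164 CPM in KO. Relative to its level, this mitochondrial transaminase spread least of the 8 among the WT S3 libraries, and its difference was -0.04 ± 0.12 (adjusted p = 0.970).

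Asns reached 1236, 1725, 1757 and 1163 CPM in WT S3 and 2247 and 1794 CPM in KO S3. The groups did not overlap, but KO embryo 9 exceeded WT embryo 5 by little, and the difference was 0.47 ± 0.21 (1.39-fold; adjusted p = 0.588). It was 0.29 without KO embryo 2, the lowest of 0.29 to 0.63 over the libraries left out. Glul, the other amide synthase, had 254, 287, 302 and 312 CPM in WT and 311 and 259 CPM in KO. Its groups overlapped throughout (-0.01 ± 0.15, adjusted p = 0.997).

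**Figure D1:**
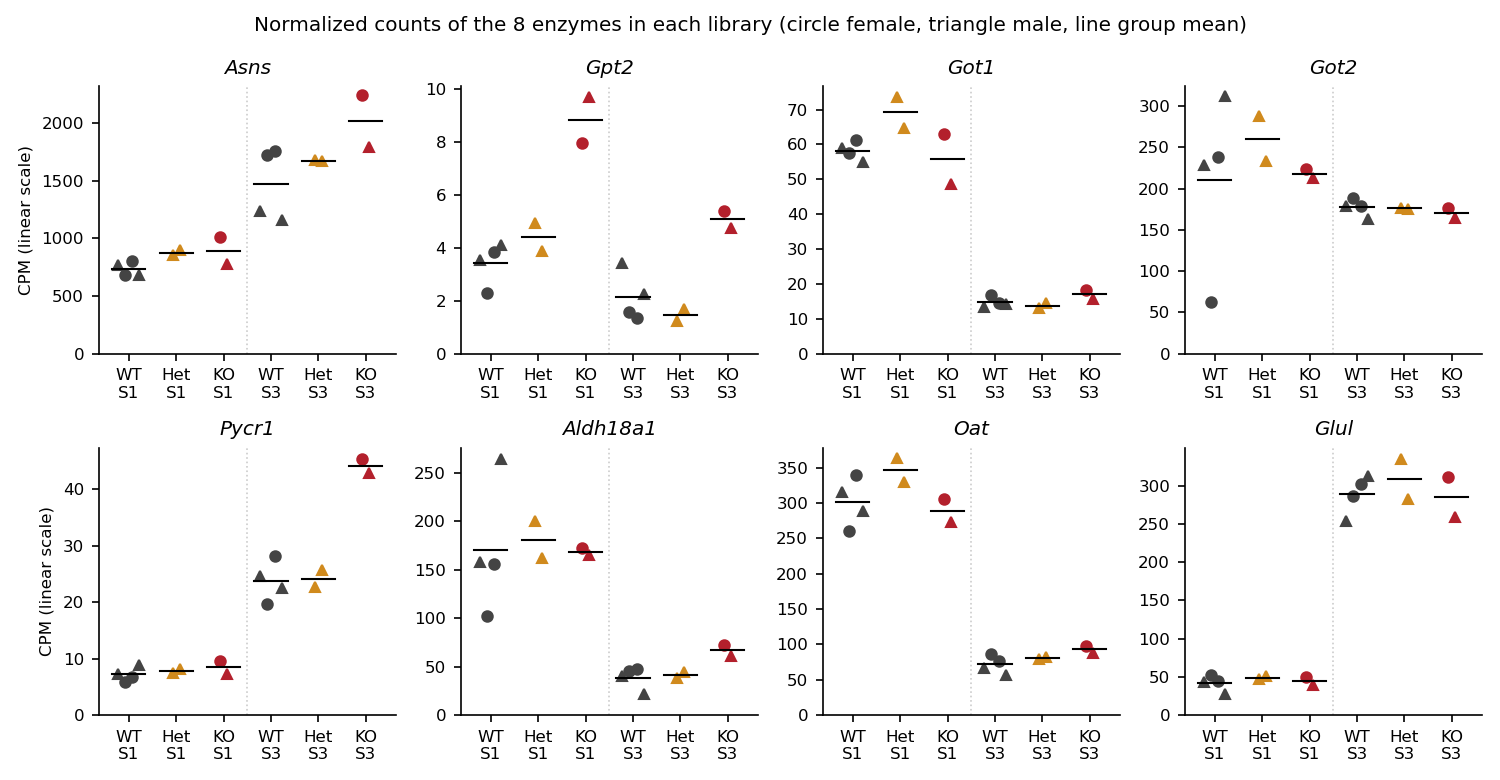
Normalized counts of each enzyme (CPM, linear axis starting at 0) in the 16 libraries by genotype and stage; circles are female and triangles male embryos, and the black line is the group mean. In S3 cells the KO points of Pycr1 (42.8 to 45.4 CPM) sit above all 4 WT points (19.7 to 28.1 CPM), while those of Got2 and Glul lie among them.

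The WT S3 libraries were themselves split by sex for several enzymes, so the KO libraries were also set against the 2 WT libraries of their own sex. Asns was at 1725 and 1757 CPM in the female WT embryos and at 1163 and 1236 CPM in the males. Against these, the female KO embryo had 2247 CPM and the male KO embryo 1794 CPM, log2 ratios of 0.37 and 0.58 to the mean of the same-sex WT pair. The female WT libraries were also above the male ones for Aldh18a1, Got1, Got2 and Oat at S3, and below them for Gpt2. The share of all genes split in this way between 2 and 2 libraries was not counted. The split is therefore not read as particular to these enzymes. In each sex the KO library was above both WT libraries of its sex for 6 enzymes (Asns, Gpt2, Pycr1, Aldh18a1, Got1 and Oat), a pattern met by 19.3% of all tested genes, and for none was it below both (21.1% of all tested genes).

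Pycr1 had nearly the same log2 ratio in the female (0.92) and the male (0.86) pairing, whereas that of Gpt2 was 1.90 in the female and 0.74 in the male pairing. Oat was at 0.27 and 0.51, and Aldh18a1 at 0.64 and 0.98. With sex as a covariate the edgeR fit called 4 of the 8 enzymes higher in KO S3, against 2.41% of all genes. They were Asns (0.49 ± 0.10, adjusted p = 0.0196), Gpt2 (1.33 ± 0.31, adjusted p = 0.0387), Pycr1 (0.90 ± 0.13, adjusted p = 0.00305) and Aldh18a1 (0.82 ± 0.18, adjusted p = 0.0264). Oat was at an adjusted p of 0.0505 in that fit, and DESeq2 with the same covariate called it too (adjusted p = 0.0264), 5 in all against 2.61% of all genes. The fitted differences moved little, the SEs of these 5 fell, and the number of calls at S3 changed with the covariate. The male WT embryos (0 and 8) also stood apart in marker sums. Hepatoblast markers at S3 summed to 1018 and 629 CPM in them and to 310 and 233 CPM in the female WT embryos, and at S1 S3 markers summed to 8173 and 8063 against 1750 and 2516 CPM and neutrophil markers to 197 and 122 against 1284 and 1110 CPM. Sex and these properties of the same WT pairs cannot be told apart with 4 embryos.

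**Figure D2:**
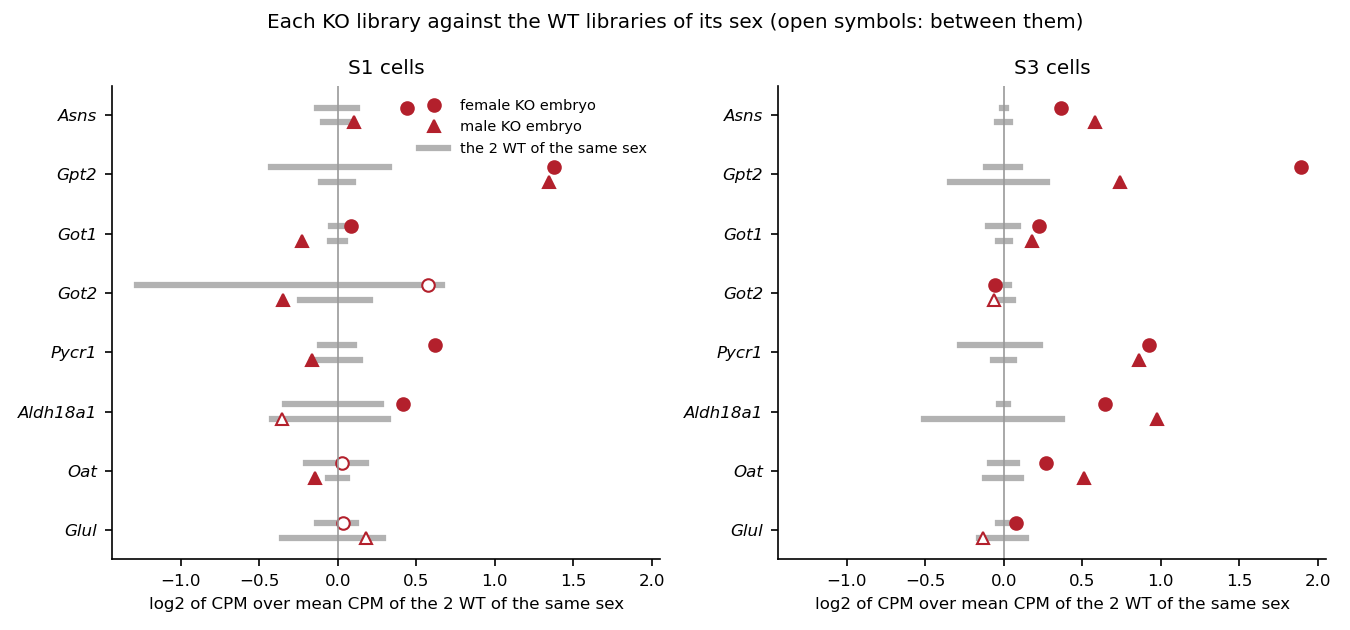
Log2 of each KO library's CPM over the mean CPM of the 2 WT libraries of the same sex, for S1 (left) and S3 cells (right); grey bars span those 2 WT libraries and open symbols lie between them. At S3 both KO points of Asns, Gpt2, Pycr1, Aldh18a1, Got1 and Oat lie to the right of their grey bars, and at S1 only those of Asns and Gpt2 do among the 8 enzymes.

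In S1 cells the KO libraries stood apart from WT for Gpt2 alone among the 8. It was measured at 3.54, 2.27, 3.83 and 4.09 CPM in WT S1 and at 7.95 and 9.69 CPM in KO S1 (97 to 192 counts against 334 and 472). Both KO libraries were above the highest WT library by a wide margin, and the difference was 1.37 ± 0.28 (2.59-fold; adjusted p = 0.766). None of the 8 was called by edgeR at S1 (1 had an unadjusted p under 0.05), where 0% of 14039 genes were called higher and 0.00712% lower, while 6.85% had both KO libraries above every WT library and 3.34% both below. Against the WT libraries of the same sex, the KO library was above both in each sex for Gpt2 (log2 ratios of 1.38 and 1.34 in the female and the male pairing) and Asns (0.44 and 0.11), as for 12.5% of all genes, and below both for none (8.55%). DESeq2 called Gpt2 (adjusted p = 0.0106), where it called 0.264% of all genes higher, and did so with sex as a covariate too, with 0.848% of all genes.

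The other 7 enzymes overlapped between KO and WT at S1. Asns gave 772, 679, 808 and 679 CPM in WT and 1009 and 780 CPM in KO (0.29 ± 0.18, adjusted p = 1.00), so that the KO library of embryo 9 fell within the WT range. Pycr1, with 7.23, 5.79, 6.73 and 8.94 CPM in WT and 9.64 and 7.22 CPM in KO, differed by 0.24 ± 0.25. The remaining enzymes lay between -0.05 (Got1) and 0.10 (Glul).

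Whether the KO effect differed between the stages was tested as an interaction over the WT and KO libraries of both stages. None of the 8 enzymes was called in edgeR or DESeq2 (1 had an unadjusted p under 0.05 in edgeR), as against 0.00742% of 13485 genes in edgeR. The KO effect of Pycr1 was larger at S3 than at S1 by 0.66 ± 0.30 and that of Aldh18a1 by 0.80 ± 0.49 on the log2 scale, though the latter was 0.31 without WT embryo 8 (0.31 to 1.01 over the embryos left out). For Gpt2 the effects at the stages differed by -0.12 ± 0.52.

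In Het cells, which keep 1 intact allele, no enzyme was called by edgeR at either stage, and 0 had an unadjusted p under 0.05; DESeq2 called none of them either. Across all genes edgeR called 0% at S3 (373 of 11746 genes had an unadjusted p under 0.05, and DESeq2 called 1) and 0% at S1 (589 of 13818, with 30 called by DESeq2). At S3 all 8 overlapped with WT, where 6.26% of all genes lay above every WT library in both Het libraries and 6.69% below. Pycr1 was at 22.7 and 25.6 CPM in Het S3, inside the WT range. Gpt2 had 1.22 and 1.70 CPM in Het S3 and 4.95 and 3.88 CPM in Het S1, differences of -0.55 ± 0.43 and 0.36 ± 0.29 to WT.

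Asns was at 1678 and 1675 CPM in Het S3, between the male and the female WT libraries (0.18 ± 0.19). Both Het embryos were male, and both values exceeded those of the male WT embryos. With sex as a covariate edgeR called Asns (0.47 ± 0.11, adjusted p = 0.0154) and Oat (0.37 ± 0.11, adjusted p = 0.0418) higher in Het S3, in a fit that called 8.84% of all genes higher, and DESeq2 with the covariate called the same 2 (9.97% of all genes). At S1 the Het libraries lay above all WT libraries for Asns (853 and 896 CPM) and Got1 (73.7 and 64.7 CPM against at most 61.2 in WT), as they did for 9.28% of all genes (9.05% below), and the differences of all 8 were positive, from 0.09 (Aldh18a1) to 0.36 (Gpt2). With sex as a covariate those of Pycr1 (-0.058), Aldh18a1 (-0.22) and Got2 (-0.049) at S1 were negative.

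**Figure D3:**
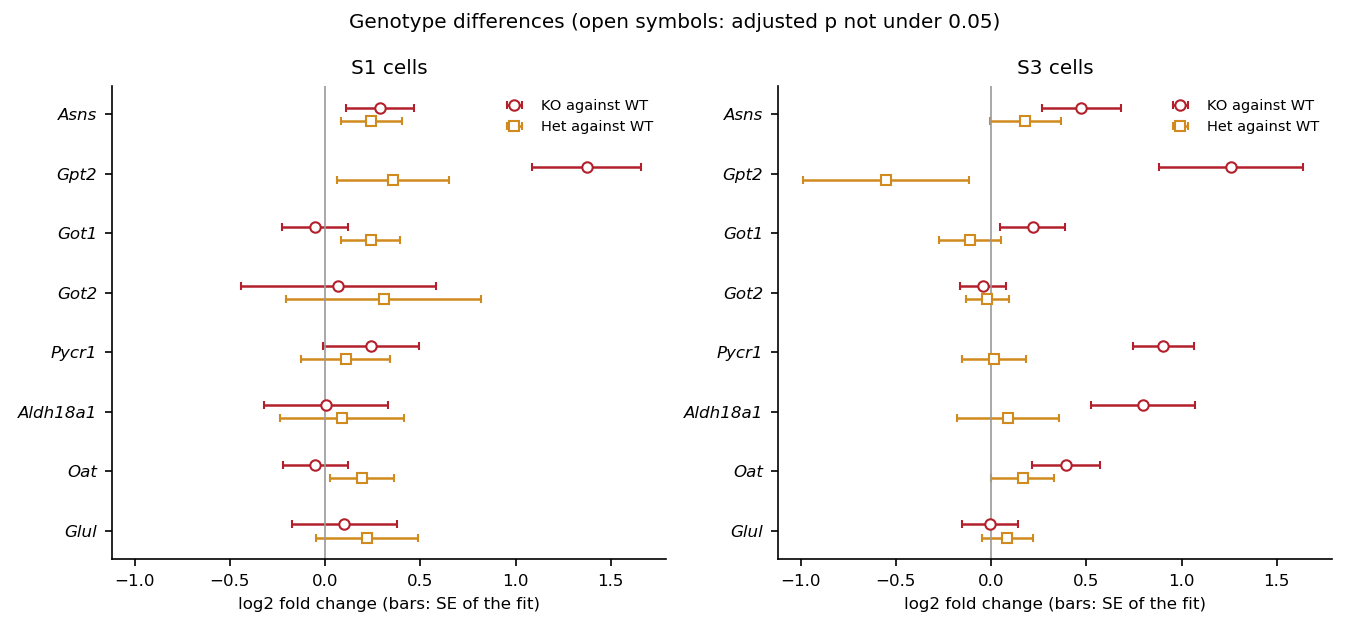
Log2 fold change of each enzyme in KO (circles) and Het (squares) against WT in S1 (left) and S3 cells (right), with bars of 1 SE from the edgeR fit without covariates; open symbols have an adjusted p of 0.05 or more. All symbols are open, and the largest KO differences are those of Gpt2 at both stages (1.37 and 1.26) and of Pycr1 (0.90) and Aldh18a1 (0.80) at S3.

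The change from S1 to S3 was larger than any KO or Het difference for 6 of the 8 enzymes. In WT embryos 3 were called higher in S3 (Glul, Pycr1 and Asns) and 3 lower (Aldh18a1, Oat and Got1), where 30.6% of 13514 genes were called higher and 35% lower. The S1 and S3 libraries of these 6 did not overlap, as was so for 29% of all genes in the direction of S3 and 31.8% in that of S1. The median over the 8 was -0.45 and that over all tested genes -0.08 (log2, S3 minus S1). Leaving out an embryo gave medians over the 8 from -0.62 to -0.26, with -0.29 without embryo 5 and -0.26 without embryo 8. These values are shares of the RNA of each stage, and globin genes took 10.0 to 11.9% of the counts at S3 against 0.0738 to 1.07% at S1.

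Within the proline branch the enzymes moved apart. The reductase Pycr1 rose from 5.79 to 8.94 CPM in WT S1 to 19.7 to 28.1 CPM in WT S3, by 1.74 ± 0.18 (adjusted p = 1.46e-05). The synthase Aldh18a1 fell from 158, 102, 156 and 264 CPM in WT S1 to 21.8 to 47.4 CPM in S3 (-2.12 ± 0.30, adjusted p = 0.000137). Oat fell from 315, 261, 340 and 289 CPM to 56.9 to 86.0 CPM (-2.07 ± 0.16, adjusted p = 2.63e-06). The ratio of Pycr1 to Aldh18a1, per kilobase of exon, went from 0.0464 ± 0.0097 (SD, n = 4) in WT S1 to 0.692 ± 0.265 in WT S3. In KO S3 the same ratio was 0.687 ± 0.056 (n = 2), within the WT range.

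The amide synthases rose together. Glul went from 42.7, 52.2, 44.0 and 27.3 CPM in WT S1 to 254 to 312 CPM in WT S3, the largest change of the 8 (2.79 ± 0.22, 6.91-fold, adjusted p = 2.56e-06). Asns rose by 1.00 ± 0.18 (2.01-fold, adjusted p = 0.000568), and no WT S3 library was as low as any WT S1 library for either gene. Per kilobase, Asns exceeded Glul 25.7 ± 6.7 times in WT S1 and 7.06 ± 1.45 times in WT S3 (SD, n = 4).

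Of the transaminases, cytosolic Got1 fell from 59.0, 57.7, 61.2 and 55.0 CPM in WT S1 to 13.4 to 16.7 CPM in S3 (-1.98 ± 0.14, adjusted p = 1.32e-06). Mitochondrial Got2 was not called (-0.22 ± 0.36, adjusted p = 0.604). Its WT S1 libraries gave 228, 61.9, 239 and 312 CPM, so embryo 1 stood far below the others, and without that embryo Got2 was called lower in WT S3 (-0.56, adjusted p = 0.0123), while without embryo 8 the sign turned (0.07, adjusted p = 0.892). Gpt2 was not called either in WT (-0.67 ± 0.34, adjusted p = 0.106), but was called without embryo 0 (-0.98, adjusted p = 0.0480), whose S3 library had the highest WT value, and in the fit of all 16 libraries (-0.68 ± 0.29, adjusted p = 0.0469). The ratio of Got2 to Got1, per kilobase, was 1.91 ± 1.00 in WT S1 and 6.37 ± 0.48 in WT S3.

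The same 6 enzymes were called in KO embryos, in the same directions, where 26.9% of 13402 genes were called higher and 30% lower. Both KO S3 libraries lay above both KO S1 libraries for 3 enzymes and below for the other 5 (36.7% and 41.2% of all genes), and the same held in Het (42.1% and 44.8%). In KO embryos Pycr1 rose by 2.39 ± 0.24, Glul by 2.68 ± 0.25 and Asns by 1.18 ± 0.22. The falls in KO were -1.72 ± 0.18 for Got1, -1.64 ± 0.19 for Oat and -1.34 ± 0.38 for Aldh18a1. That of Aldh18a1 was no longer called when either KO embryo was left out (-1.44, adjusted p = 0.0623 without embryo 2, and -1.26, adjusted p = 0.0756 without embryo 9). In the fit of all 16 libraries, Het embryos had these 6 calls and also Gpt2 (-1.59 ± 0.42, adjusted p = 0.00459), which was lost without embryo 3 (-1.22, adjusted p = 0.126), as was Asns (0.87, adjusted p = 0.0591); the backgrounds were 28.9% higher and 32.4% lower. Got2 was not called in KO (-0.36 ± 0.45) or Het (-0.57 ± 0.45), though in Het it was without the S1 and S3 libraries of WT embryo 1 (-0.57, adjusted p = 0.00922) and without a filter on low counts (-0.69, adjusted p = 0.0218).

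**Figure D4:**
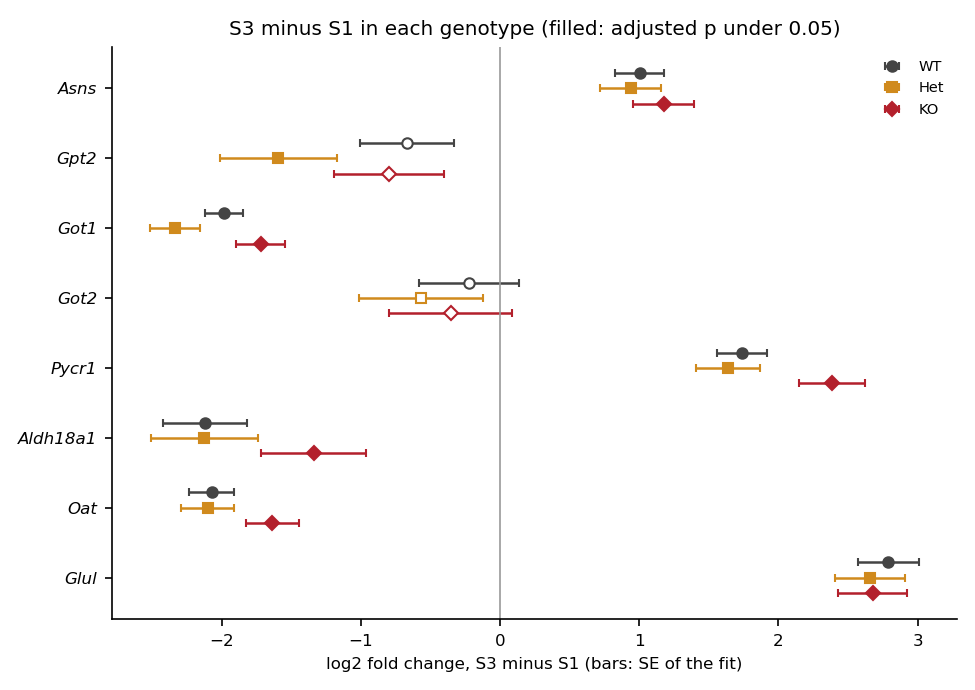
Log2 fold change from S1 to S3 of each enzyme in WT (circles), Het (squares) and KO embryos (diamonds), with bars of 1 SE from the edgeR fits; filled symbols have an adjusted p under 0.05. Glul, Pycr1 and Asns lie to the right of 0 and Aldh18a1, Oat and Got1 to the left in every genotype.

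Levels of the enzymes were compared with each other per kilobase of exon (CPM per kb), since longer transcripts give more reads. In WT S1 the order was Asns (268 ± 24.1, SD, n = 4), Oat (128 ± 14.4), Got2 (43.6 ± 21.9), Aldh18a1 (41.8 ± 16.7), Got1 (22.9 ± 1.0), Glul (10.99 ± 2.75), Pycr1 (1.82 ± 0.34) and Gpt2 (0.608 ± 0.143). Only Got2 and Aldh18a1 overlapped among the neighbours of that order. In WT S3 Asns still led (538 ± 115), followed by Glul (76.3 ± 6.7), Got2 (36.8 ± 2.1), Oat (30.3 ± 5.3), Aldh18a1 (9.50 ± 2.87), Pycr1 (6.04 ± 0.90), Got1 (5.80 ± 0.57) and Gpt2 (0.380 ± 0.167). There Got2 overlapped with Oat, and Aldh18a1, Pycr1 and Got1 overlapped as neighbours. In KO S3 the libraries of these neighbours did not overlap, in the order Oat (39.5 ± 2.9, n = 2), Got2 (35.3 ± 1.9), Aldh18a1 (16.4 ± 2.0), Pycr1 (11.2 ± 0.5) and Got1 (6.68 ± 0.77). Over all 16 libraries the highest level exceeded the lowest by 3.31 times for Asns and by 12.2 times for Glul, the narrowest and the widest range of the 8.

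Gpt2 was also read against its sister gene, per kilobase. The ratio of Gpt2 to Gpt, the cytosolic alanine aminotransferase, was 0.606 ± 0.204 in WT S3 (0.351 to 0.802) and 1.33 to 2.11 in KO S3. At S1 it was 0.289 to 0.736 in WT and 0.978 to 1.74 in KO, again without overlap. Gpt itself differed between KO and WT S3 by -0.18 ± 0.33.

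Partner enzymes of the same pathways, a list of 24 that holds isozymes, the breakdown enzymes of these amino acids and the urea cycle, had 16 members tested at S3. In KO S3 edgeR called 0 of the 16 (3 had an unadjusted p under 0.05, DESeq2 called 0), 14 differences were negative, and the median was -0.21. Both KO libraries lay below all WT libraries for 5 of the 16 and above for 0 (8.92% and 9.63% of all genes). The 5 were the 3 with the smallest p-values and, named after their values were seen, Asnsd1 and Glud1. Otc (ornithine transcarbamylase of the urea cycle) was at 3.06 to 6.66 CPM in WT and 1.84 to 1.92 CPM in KO (-1.32 ± 0.40, adjusted p = 0.301). Prodh2 (hydroxyproline dehydrogenase), at 0.642 to 2.88 CPM in WT and 0.381 to 0.508 CPM in KO, differed by -1.87 ± 0.64 (adjusted p = 0.381). Odc1 (ornithine decarboxylase, the entry to polyamines) was the abundant one of the 3, at 3195 to 5383 CPM in WT and 2563 to 3167 CPM in KO (-0.57 ± 0.22, adjusted p = 0.477). With sex as a covariate edgeR called Otc (adjusted p = 0.0356) and Odc1 (adjusted p = 0.0497) lower, in a fit that called 2.22% of all genes lower. Otc, a gene of hepatocytes, stands beside hepatoblast marker sums of 108 to 276 CPM in KO S3 and 233 to 1018 CPM in WT S3. The part of hepatoblast RNA in its difference, and in those of the other partner enzymes, was not tested. At S1 none of 20 tested partners was called in KO by edgeR or DESeq2 (1 had an unadjusted p under 0.05; median 0.04).

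In the change from S1 to S3 in WT, 5 of 20 tested partners were called higher and 11 lower, against 30.6% and 35% of all genes, with a median of -1.07. Among the 20, Bcat1 (mean counts of 32.3 in WT S1 and 0 in WT S3) and Gls2 (58.5 and 3.75) passed the filter on low counts only through S1. Their falls are therefore no independent support, and both enter that median. Prodh (proline dehydrogenase, which breaks proline down) fell from 10.2 to 13.4 CPM in S1 to 0.184 to 0.687 CPM in S3 (-4.92 ± 0.37, adjusted p = 1.97e-06), opposite to Pycr1. Bcat1 (the cytosolic branched-chain aminotransferase) was counted 26 to 39 times in WT S1 and 0 times in all WT S3 libraries, at least 5.33-fold lower when a floor of 3 counts per library is set for S3.

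A list of 18 genes of the ATF4 response, which was drawn up with results of these libraries known and is no independent evidence of a direction, had 14 members tested at S3. Of these, 3 were called higher in KO S3 (Slc7a11, Trib3 and Slc7a3), against 0.457% of all tested genes, 13 of the differences were positive (51% over all genes), and the median was 1.33, against 0.43 for the 8 enzymes. Slc7a3 is among the calls, and it and Atf5 are among the 13, though both passed the filter on low counts only through KO. Slc7a11, the cystine importer, was at 0.964 to 1.97 CPM in WT S3 and 14.9 to 18.6 CPM in KO S3 (3.60 ± 0.29, adjusted p = 0.00428). Trib3, a pseudokinase, had 9.56 to 15.02 CPM in WT and 53.0 to 57.9 CPM in KO (2.21 ± 0.18, adjusted p = 0.00428). Slc7a3, a cationic amino acid importer, had 0.0858 to 0.306 CPM in WT and 3.84 to 7.68 CPM in KO (4.75 ± 0.47, adjusted p = 0.00910). Slc7a3 had 2 to 8 counts per WT library, and Atf5 a mean of 8.75 counts in WT S3 and 23 in KO S3. Both passed the filter on low counts only through their KO libraries. Their differences, and the call of Slc7a3, are therefore no independent support. Atf4 mRNA itself differed by 0.01 ± 0.25. At S1 none of 15 was called by edgeR (6 had an unadjusted p under 0.05), and DESeq2 called 3, against 0.264% of all genes called higher. In the change from S1 to S3 in WT, 7 of 14 were called higher and 4 lower, against 30.6% and 35% of all genes. The largest were Stc2, which fell from 44 to 114 counts in S1 to 0 to 2 counts in S3, and Chac1, which rose from 0.293 to 0.575 CPM to 3.40 to 8.88 CPM (3.73 ± 0.41, adjusted p = 2.12e-05). Stc2 and Slc7a3 (mean counts of 35.3 in WT S1 and 4.5 in WT S3) passed the filter on low counts only through S1. Both are among the 4 called lower, and their falls are no independent support.

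The enzymes did not share a single pattern across the 16 libraries. Pearson's r of log2 CPM was 0.94 between Asns and Pycr1, 0.99 between Got1 and Oat and -0.97 between Got1 and Glul, over points that fall into the S1 and S3 libraries. Of deviations from the group means, r was 0.86 between Asns and Oat, 0.695 between Aldh18a1 and Got2 and -0.68 between Aldh18a1 and Glul, over 16 libraries that share embryos between stages. The tested genes with the most similar profiles over 16 libraries were Taldo1 for Glul (0.998), Rnf114 for Pycr1 (0.991), Slc19a1 for Oat (0.997), Mrps27 for Got1 (0.998), C2cd2 for Aldh18a1 (0.986), Hax1 for Asns (0.970), Castor2 for Gpt2 (0.932) and Ssr1 for Got2 (0.930). The second in each case were Inka1, 1600020E01Rik, Poldip2, Wdr77, Siae, Lrpap1, Map2k1 and Gatd3a, in the same order, with r from 0.902 to 0.998.

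Reads of some members may be split with other genes. Exons of Got2 share 434 bases with Gm45760 and those of Glul 116 bases with Teddm2 on the opposite strand, and Glul shares 93 bases with the microRNA gene Mir8114, while reads were counted without regard to strand and dropped where genes overlap. Got2 also has the processed pseudogene Got2-ps1, and reads that map to several places were left out. The values of Got2 and Glul are therefore uncertain to that extent.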

How the data were processed

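Per the file header and the study's methods, the authors mapped poly(A) RNA-seq reads, amplified from sorted cells, to mm39 with STAR 2.7.9 and made the counts with featureCounts 1.6.4 on the Ensembl annotation, without strand. The deposited values are raw counts of read pairs per gene, without pairs that map to several places or overlap several genes. The submitters' processing notes also name deepTools 3.3.1. GENCODE mouse release 39 gave symbols for 54749 of the 55416 genes. The table has 4 further library columns, not used here.

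Genes with a mean above 10 normalized counts over the libraries of a fit were tested with edgeR 4.0.16 in R 4.3.3 (TMM, glmQLFit, glmQLFTest), with Benjamini-Hochberg adjustment over every gene tested and a threshold of 0.05. Genotypes were compared within each stage without covariates, S3 with S1 within each genotype (WT on its own libraries, KO and Het in a fit of all 16), and the interaction over WT and KO. Ratios are KO, Het or S3 over WT or S1, and group overlap was judged on normalized counts. The study names DESeq2, which was used as an alternative (1.42.0). Further alternatives were no filter, scaling without globin genes, sex as a covariate, all 16 libraries, the embryo as a block, and leaving out each embryo. The scripts were tested on simulated data.

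Replicates are embryos. S1 and S3 libraries of 1 number come from the same embryo, and their deviations from the group means correlated with r from 0.0505 to 0.534. No pair of libraries of a group agreed within sampling noise. Precision is set by the few embryos per group. The 8 enzymes, the other lists and the sequence element were chosen with earlier results of these data known. Of the other lists the text names the 3 genes with the smallest p in KO S3 and the 2 largest called changes from S1 to S3 in WT; Atf4 and Gpt were named beside them, and the same-sex comparison was added after the data were seen. Markers were listed for S1 cells (6 genes), S3 cells (8), macrophages (15), hepatoblasts (15), neutrophils (11), megakaryocytes (10), primitive erythroid cells (3) and pluripotent cells (7, of which 6 matched). Some items are not reported here.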

Additional observations from a re-analysis of the deposited data

How the results depend on the processing

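Of the values recomputed for the 8 enzymes and the lists, 404 kept direction and side of the threshold under the alternatives that keep all embryos, while 34 gained a call (or, as a count of calls, grew more than 1.5 times) and 11 turned sign. When an embryo was left out, single differences turned sign 26 times, 4 lost and 3 gained a call, and 491 values are counted as unchanged. Those include 3 fits in which the median over the enzymes, which has no test, turned sign near 0 by less than the replicate spread, 1 in KO S1 (-0.0062 without KO embryo 2) and 2 in Het S3 (to -0.029). The median from S1 to S3 in Het moved by more than that spread in 2 fits (-0.83 without embryo 3 and -1.36 without embryo 4). No enzyme was called in KO S3 in the fit reported; 1 was with DESeq2, 2 without a filter on low counts (Pycr1 and Aldh18a1), 4 with sex as a covariate, 5 with DESeq2 and that covariate, 1 (Pycr1) with all 16 libraries, and 0 to 0 when an embryo was left out. In KO S1 DESeq2 called 1 with or without the covariate (0.848% and 0.264% of all genes higher), and in Het S3 edgeR and DESeq2 with the covariate each called 2. For all genes, calls in KO S3 were 54 higher and 12 lower in the fit reported, 144 and 115 with DESeq2, 219 and 137 without a filter, 285 and 262 with sex, 308 and 422 with DESeq2 and sex, and 88 and 16 with all 16 libraries, so the share of higher calls was lower in each of these but the last. Without an embryo they were 9 (without WT embryo 8) to 41 (without KO embryo 9) higher and 0 to 5 lower. Listed ATF4 response genes called in KO S3 numbered 3 in the fit reported (Slc7a3 among them), 7 (DESeq2 or no filter) and 9 (either tool with sex). Without an embryo, enzymes called from S1 to S3 numbered 6 to 7 in WT, 5 to 6 in KO and 5 to 8 in Het. Over all genes, 7383 (without embryo 5) to 8864 (without embryo 8) were called from S1 to S3 in WT. With the embryo as a replicate block, 6, 6 and 7 enzymes were called from S1 to S3 in WT, KO and Het and 0 in the interaction, and the block changed no call of an enzyme. Those fits called 9410 of 13514 genes in WT, 8211 of 13402 in KO and 8826 of 13402 in Het. Without an embryo, the difference moved by over 1.5 times or turned sign for 4 of the 8 enzymes in KO S3 (Asns, Got1, Got2 and Glul), 7 in KO S1, 8 in Het S3, 7 in Het S1, 2 from S1 to S3 in WT (Gpt2 and Got2), 0 in KO and Het, and 5 in the interaction. The cause of these changes was not tested.

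Differences near 0 turned sign (log2 values). Aldh18a1 in KO S1 was -0.0079 with DESeq2 and -0.013 with all 16 libraries. In Het S3, Got1 was 0.00061 with DESeq2 and sex, and Got2 0.028 with sex and 0.041 with DESeq2 and sex. In Het S1 with sex and with DESeq2 and sex, Pycr1 was -0.058 and -0.070, Aldh18a1 -0.22 and -0.23, and Got2 -0.049 and -0.060. Leaving out an embryo gave, in KO S3, -0.11 to 0.016 for Got2 and -0.15 to 0.13 for Glul; in KO S1, -0.17 to 0.28 for Aldh18a1, -0.25 to 0.11 for Got1, -0.23 to 0.30 for Got2, -0.063 to 0.24 for Glul and -0.14 to 0.013 for Oat; in Het S3, -0.084 to 0.11 for Pycr1, -0.098 to 0.21 for Aldh18a1, -0.051 to 0.0090 for Got2 and -0.032 to 0.20 for Glul; in Het S1, -0.088 to 0.34 for Aldh18a1; from S1 to S3 in WT, -0.56 to 0.069 for Got2; and in the interaction, -0.39 to 0.21 for Gpt2, -0.40 to 0.17 for Got2 and -0.29 to 0.078 for Glul.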
